A study of Drosophila melanogaster with 12 samples.

Results

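Transcripts of 10 genes of the muscle contractile apparatus were followed in RNA from the larval fat body of Drosophila melanogaster. The genes were taken by symbol from a count table of 15222 genes, and all 10 (Mhc, Mlc1, Mlc2, Act57B, Tm1, Tm2, up, wupA, sls and bt) were found and held enough counts to be tested. The larvae were females in the wandering stage of the third instar, and per the labels their fat bodies were set free by shearing and collected by centrifugation. Mothers carrying UAS-Dcr2 and r4-GAL4, a driver used for the fat body, were mated to males of stock 60000 (w1118), which gave the control larvae, or to males of stock 992 carrying UAS-InRi, a construct for RNA interference against the insulin receptor gene InR. All larvae of the 4 groups therefore carried UAS-Dcr2 and r4-GAL4, and they grew at 25 °C on food with 0.15 M or 0.7 M sucrose. Each group (control 0.15 M, InRi 0.15 M, control 0.7 M and InRi 0.7 M) had 3 libraries of total RNA depleted of ribosomal RNA. The labels do not say whether the libraries came from separate cultures, so every p-value measures only the spread between these libraries.

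Muscle contracts when thick filaments of myosin pull on thin filaments of actin within a repeating unit, the sarcomere. In thin filaments a strand of tropomyosin lies along the actin, and the troponin complex moves it when calcium rises. Giant proteins of the titin family tie the thick filaments to the ends of the sarcomere. Body wall muscles of the larva are built from these proteins, while the fat body is a storage and secretory organ with no sarcomeres. In bulk RNA, fewer cells of a type and less RNA per cell cannot be told apart.

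The 12 libraries held 872755 to 7114144 counts. Levels are given as CPM, reads of a gene scaled to a library total of 1000000 reads, with totals adjusted by TMM (trimmed mean of M values). Of 10 genes of the fat body, the summed reads took 17.9% to 32.9% of the counts in every library, so transcripts of these genes were abundant throughout. The lowest share was that of control 0.15 M replicate 2. The RNAi target InR was not lowered in its counts. Its level stood at 26.0 to 61.1 CPM in the 6 control libraries and at 109 to 163 CPM in the other 6 (edgeR log2 fold change 1.60, adjusted p = 0.0185 on 0.15 M, and 1.42, adjusted p = 0.0157 on 0.7 M sucrose). The increase passed in 17 of 20 and in 16 of 22 alternatives. With 11 libraries the values were 1.33 (adjusted p = 0.00837) and 1.44 (adjusted p = 0.00062). Counts per gene do not separate reads of the larva's own InR transcript from any reads of the UAS-InRi construct, so these levels do not measure the receptor's own transcript, and the part of the construct was not tested. Directions below are therefore those of libraries labelled InRi.

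Control 0.15 M replicate 2 stood apart from the other 11 libraries, and fold changes and calls are given with it and, as fits of 11 libraries, without it. It held 1525455 counts on 7628 genes, while the shallower control 0.7 M replicate 3, with 872755 counts, detected 9214 genes. Genes of the mitochondrial genome took 0.0451% of its counts, against 0.776% to 6.67% elsewhere. Rfabg, which encodes the lipophorin precursor made by fat body, stood at 184 CPM in it and at 5265 CPM or more in the others. The part of these differences in the results below was not tested.

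The 10 muscle genes together took 0.141% to 1.42% of the counts of a library. Their summed level was 2784, 16112 and 5495 CPM in control 0.15 M replicates 1, 2 and 3, and 3006, 5329 and 3910 CPM in InRi 0.15 M replicates 1, 2 and 3. In control 0.7 M it was 6244, 5271 and 5618 CPM, and in InRi 0.7 M 3981, 1746 and 4054 CPM. Control 0.15 M replicate 2 was the highest of all 12, with 21659 reads on these genes, or 1.42% of its counts (95% Wilson interval 1.40% to 1.44%, counting error only). InRi 0.7 M replicate 2 was the lowest, with 7223 reads or 0.141% (0.137% to 0.144%). Without control 0.15 M replicate 2, the group means were 5711 ± 493 CPM for control 0.7 M (SD, n = 3), 4139 ± 1917 for control 0.15 M (n = 2), 4082 ± 1171 for InRi 0.15 M (n = 3) and 3260 ± 1312 for InRi 0.7 M (n = 3). In that order, no group was separated from its neighbour by more than their ranges, and only the ends, control 0.7 M and InRi 0.7 M, did not overlap. The order of the middle groups, control 0.15 M and InRi 0.15 M, was that of TMM scaling and turned with CPM on total counts.

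**Figure D1:**
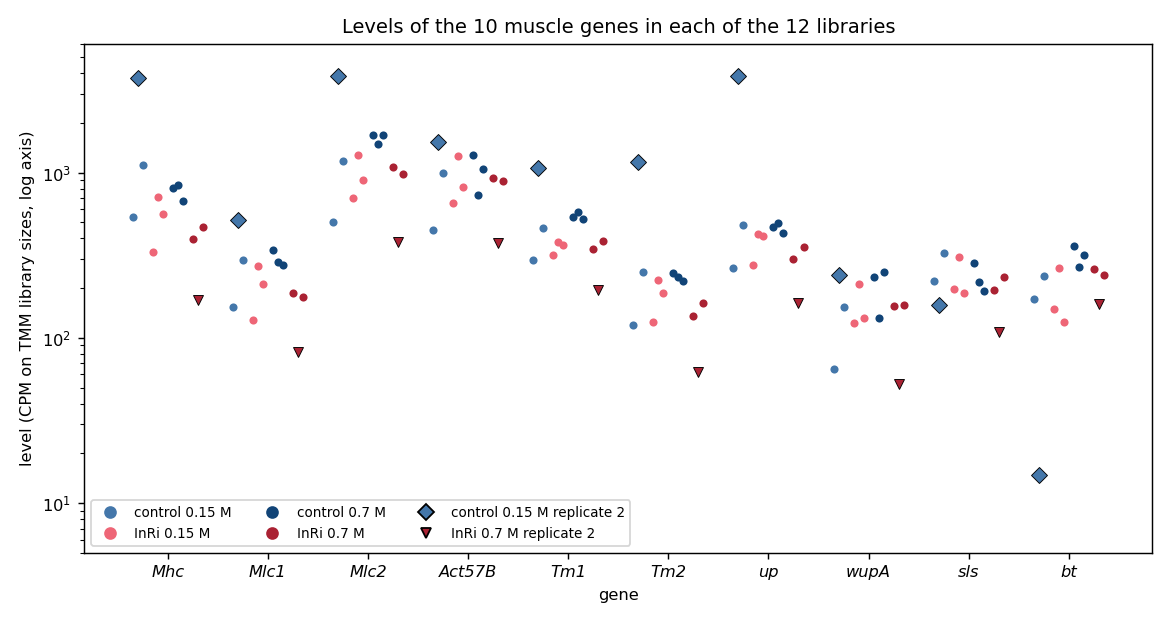
Level of each muscle gene in CPM on a log axis, with 1 point per library, coloured by group, and with control 0.15 M replicate 2 as a diamond and InRi 0.7 M replicate 2 as a triangle. The diamond lies above all other points for 7 of the 10 genes and at 14.9 CPM for bt, and the triangle is the lowest point for 9 genes.

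The thick filament genes were the first group. Mhc encodes the muscle myosin heavy chain, the motor of the sarcomere. Its level was 542, 3723 and 1109 CPM in control 0.15 M and 330, 716 and 559 CPM in InRi 0.15 M. In control 0.7 M it was 809, 844 and 672 CPM, and in InRi 0.7 M 396, 170 and 467 CPM. The 3 libraries of InRi 0.7 M thus lay below the 3 of control 0.7 M, while on 0.15 M sucrose the groups overlapped.

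Mlc1 encodes the essential (alkali) light chain of muscle myosin and Mlc2 the regulatory light chain. Mlc1 stood at 154, 519 and 295 CPM in control 0.15 M, 127, 272 and 212 in InRi 0.15 M, 342, 289 and 278 in control 0.7 M and 186, 82.4 and 177 in InRi 0.7 M. Mlc2 stood at 504, 3836 and 1182 CPM in control 0.15 M, 706, 1269 and 908 in InRi 0.15 M, 1684, 1479 and 1684 in control 0.7 M and 1076, 379 and 982 in InRi 0.7 M. Both light chains repeated the pattern of Mhc, with separate groups on 0.7 M and overlapping groups on 0.15 M sucrose. In control 0.15 M replicate 2 the log2 difference from the mean of the other control 0.15 M libraries was 2.31 for Mlc2 and 2.26 for Mhc but 1.29 for Mlc1.

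The thin filament genes encode actin and tropomyosin. Act57B, an actin of larval body wall muscle, was at 446, 1538 and 997 CPM in control 0.15 M, 658, 1259 and 823 in InRi 0.15 M, 1280, 735 and 1053 in control 0.7 M and 932, 373 and 891 in InRi 0.7 M. Its groups overlapped in every comparison. Actin genes are close copies of each other, so reads of Act57B may be shared with other actins, and its values are uncertain to that extent.

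Tm1 and Tm2 encode tropomyosins, and Tm1 also gives rise to non-muscle forms that counts per gene cannot separate. Tm1 was at 296, 1070 and 465 CPM in control 0.15 M, 317, 381 and 363 in InRi 0.15 M, 535, 578 and 525 in control 0.7 M and 343, 195 and 386 in InRi 0.7 M. Tm2 was at 120, 1156 and 250 CPM in control 0.15 M, 124, 225 and 188 in InRi 0.15 M, 246, 234 and 220 in control 0.7 M and 136, 62.4 and 163 in InRi 0.7 M. Both were separate between the groups on 0.7 M sucrose. The ratio of Tm2 to Tm1 reads ranged from 0.320 to 0.590 in 11 libraries and was 1.08 in control 0.15 M replicate 2.

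The troponin genes were up, which encodes troponin T, the subunit that binds tropomyosin, and wupA, which encodes troponin I, the inhibitory subunit. The levels of up were 265, 3860 and 480 CPM in control 0.15 M, 274, 426 and 414 in InRi 0.15 M, 471, 494 and 429 in control 0.7 M and 299, 162 and 354 in InRi 0.7 M. Those of wupA were 65.2, 239 and 153 CPM in control 0.15 M, 122, 212 and 132 in InRi 0.15 M, 232, 133 and 249 in control 0.7 M and 155, 52.2 and 158 in InRi 0.7 M. Control 0.15 M replicate 2 was far above all others for up but within the range of the others for wupA. The ratio of up to wupA reads was 16.2 in that library and 1.72 to 4.07 in the other 11. Both genes lie on the X chromosome.

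The giant proteins were represented by sls, which encodes the titin-like protein Sallimus of the sarcomere's elastic link, and bt, which encodes Projectin, a titin-like kinase. For sls the values were 221, 157 and 328 CPM in control 0.15 M, 197, 307 and 187 in InRi 0.15 M, 285, 217 and 192 in control 0.7 M and 196, 109 and 234 in InRi 0.7 M. For bt they were 171, 14.9 and 236 CPM in control 0.15 M, 150, 263 and 124 in InRi 0.15 M, 361, 268 and 317 in control 0.7 M and 261, 159 and 241 in InRi 0.7 M. These were the genes for which control 0.15 M replicate 2 was not high, and bt rested on 20 reads in it, against 291 to 1832 reads in the other 11. The ratio of bt to Mhc reads was 0.0040 there and 0.213 to 0.935 elsewhere, and the ratio of sls to Mhc was 0.0422 there and 0.257 to 0.640 elsewhere.

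**Figure D2:**
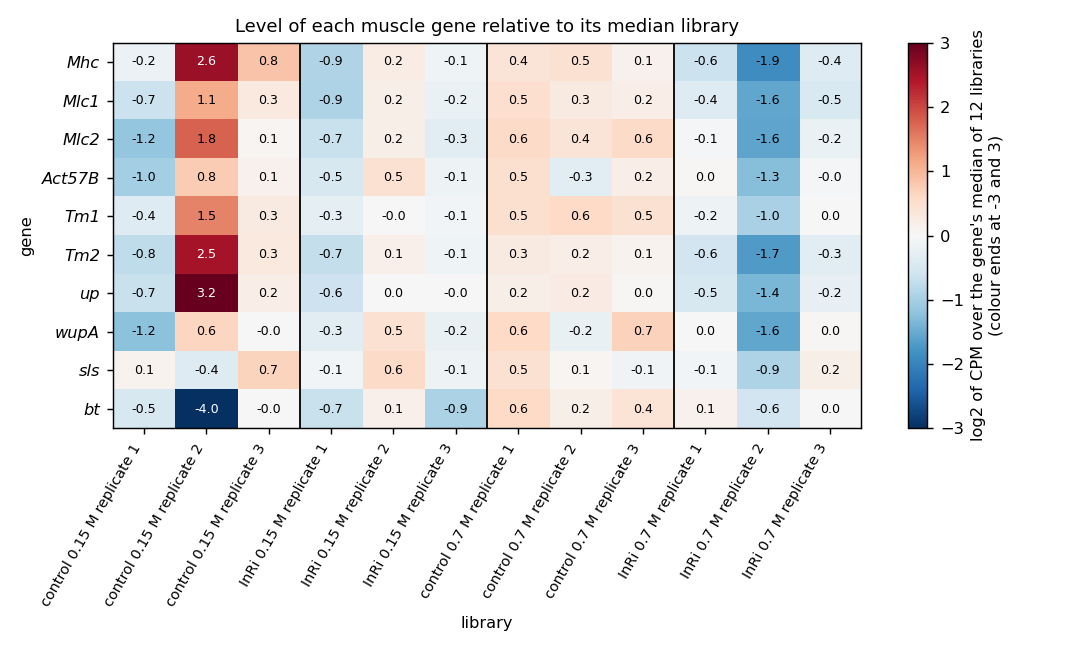
Level of each muscle gene in each library as log2 of its CPM over that gene's median of the 12 libraries, from blue (below) to red (above), with black lines between groups. Control 0.15 M replicate 2 is the darkest red for up (3860 CPM) and the darkest blue for bt (14.9 CPM), whereas InRi 0.7 M replicate 2 lies below the median for all 10 genes.

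Per length the genes stood at very different levels. Per kilobase of the longest transcript in a later annotation, the median over the 11 libraries other than control 0.15 M replicate 2 was 517 CPM for Act57B, 471 for Mlc2, 244 for up, 150 for Mlc1, 125 for Tm1, 113 for wupA, 94.7 for Tm2, 76.1 for Mhc, 8.72 for bt and 3.84 for sls. Per kilobase of all exons of a gene together, Act57B and Mlc2 kept 516.7 and 470.9, while Tm1 was at 38.9 and Mhc at 61.7. Neighbours in this order overlapped in their ranges over libraries, except Mhc (23.2 to 151) and bt (4.49 to 13.1). Per kilobase of all exons, Act57B or Mlc2 was first in each of the 12 libraries, and the titin-like genes were last in each. Per kilobase of the longest transcript, up was first in control 0.15 M replicate 2, at 2276 CPM against 1678 for Mlc2 and 892 for Act57B. Transcripts of very different length are made from these genes, with 21 annotated for Mhc, 18 each for up and Tm1, 13 each for wupA and sls and 1 each for Act57B and Mlc2, and the table sums them.

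The makeup of the muscle signal had these ranges over 11 libraries. Of the reads on the 10 genes, Mlc2 took 18.1% to 30.0%, Act57B 13.9% to 23.6%, Mhc 9.76% to 20.2%, Tm1 7.15% to 11.2% and up 7.52% to 10.6%. In control 0.15 M replicate 2, up took 24.0%, Mhc 23.1%, Mlc2 23.8% and Act57B 9.54%, and bt took 0.0923%. For up and Mhc these shares lay above the range of the other 11 libraries, and for Act57B and bt below it.

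The position of bt was examined because it is the one gene of the 10 on chromosome 4. Of the genes at 5 CPM or more on average, 58 lay on that chromosome, and all 58 were lower in control 0.15 M replicate 2 than in replicates 1 and 3 of its group. Their median log2 difference was -4.31, while the medians of the other chromosome arms were -0.45 to -0.24 for 2L, 2R, 3L and 3R and 0.21 for X. In the other 11 libraries the chromosome 4 median was within -0.25 to 0.22 of the rest of the group. bt itself differed by -3.71, which ranked 36th from the lowest of the 58. The share of counts on chromosome 4 genes was 0.117% in this library and 1.07% to 2.63% in the others. The other members differed by -0.78 (sls, on 3L) to 3.43 (up, on X).

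**Figure D3:**
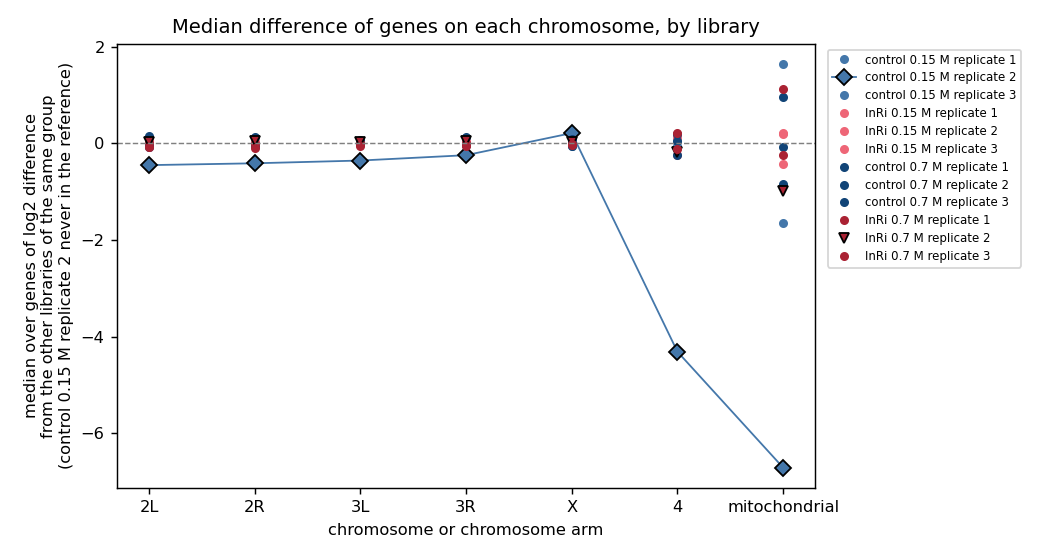
Median over genes of the log2 difference between a library and the mean of the other libraries of its group, by chromosome or chromosome arm, with control 0.15 M replicate 2 left out of every mean and drawn as joined diamonds. Its chromosome 4 genes lie at -4.31 and its mitochondrial genes at -6.71, while its other arms lie between -0.45 and 0.21.

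Libraries labelled InRi were compared with control libraries on 0.15 M sucrose first, to ask whether the muscle transcripts differ between the genotypes on the lower sugar. With all 12 libraries none of the 10 genes passed edgeR's quasi-likelihood test at an adjusted p under 0.05, a threshold that 1.73% of 8662 genes passed. DESeq2, which called 6.54% of its genes, and limma-voom, which called 1.7%, gave 0 of them as well. Of the 10, 3 had an unadjusted p under 0.05, as had 1626 of the 8662 genes tested. A log2 fold change below 0 was found for 8 of the 10 and for 48% of all genes. The median of the 10 was -0.72, with 0.03 over all genes tested. The largest differences were those of up (log2 fold change -2.05, 95% interval -3.68 to -0.41, adjusted p = 0.183), Mhc (-1.74, -3.05 to -0.43, adjusted p = 0.163) and Tm2 (-1.50, -2.90 to -0.10, adjusted p = 0.240) in edgeR. Control 0.15 M replicate 2 was the highest library for each of these. The groups overlapped for all 10 genes, while 9.33% of all genes were lower and 13.4% higher without overlap.

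Without that library the values of up and Tm2 on 0.15 M sucrose came close to 0. Others moved away from it, as wupA went from 0.04 to 0.49 and sls from -0.03 to -0.27. The log2 fold change was -0.02 for up (95% interval -0.73 to 0.68), -0.07 for Tm2 (-0.89 to 0.74) and -0.65 for Mhc (-1.52 to 0.23), with adjusted p = 0.435 or higher for all 10 in edgeR and 4.32% of all genes called. The sign turned for Mlc2 (-0.94 to 0.17), Act57B (-0.12 to 0.32) and bt (0.34 to -0.21). The median of the 10 was -0.10, with -0.01 over all genes, and 7 were below 0, as were 51.3% of all genes. An unadjusted p under 0.05 was reached by 0 of the 10 and by 1664 of 8870 genes. The intervals still allow a difference of more than 1 on the log2 scale for some, such as Mhc. Without control 0.15 M replicate 1 instead, which leaves replicate 2 as 1 of the pair of control libraries, Mhc (-2.21, adjusted p = 0.0416) and up (-2.58, adjusted p = 0.0440) passed in edgeR, as did 2.75% of all genes in that direction.

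On 0.7 M sucrose the libraries labelled InRi were lower for all 10 genes in the fitted values. The log2 fold change was -1.17 for Mhc (95% interval -2.46 to 0.12), -1.03 for Mlc1 (-1.99 to -0.07), -0.99 for Mlc2, -0.95 for Tm2, -0.83 for Tm1, -0.77 for up, -0.75 for wupA, -0.52 for bt, -0.48 for Act57B and -0.37 for sls. For 7 of the 10 (Mhc, Mlc1, Mlc2, up, Tm1, Tm2 and bt) every library labelled InRi lay below every control library, which held for 16.5% of all genes tested. As fractions of control these 7 stood at 0.444 (Mhc) to 0.699 (bt). None passed the test with all 12 libraries (adjusted p = 0.233 or higher in edgeR, with 5.41% of genes called). DESeq2 (8.51% of its genes called) and limma-voom (6.01%) called 0. An unadjusted p under 0.05 was reached by 1 of the 10 and by 1622 of 8662 genes. The median of the 10 was -0.80, with -0.04 over all genes, and 53.3% of all genes had a value below 0. The 10 genes vary together across libraries, so their number is not a number of independent results.

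The call on 0.7 M sucrose depended on which libraries set the spread, although control 0.15 M replicate 2 is in neither group compared. Without it, Mhc (log2 fold change -1.16, SE 0.37, adjusted p = 0.0461) and Tm1 (-0.81, SE 0.25, adjusted p = 0.0381) fell in edgeR, when 18.5% of all genes were called and 7.5% called lower, and Mlc1 had adjusted p = 0.0547. All 10 were still below 0, as were 51.9% of all genes. In that scaling bt no longer separated the groups. When the 2 groups on 0.7 M sucrose were fitted alone, 6 of the 10 fell: Mhc (adjusted p = 0.0134), Mlc1 (0.0173), Tm1 (0.0273), Tm2 (0.0316), Mlc2 (0.0352) and up (0.0481), with 8.67% of all genes called lower in edgeR.

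InRi 0.7 M replicate 2 was the lowest of all 12 libraries for 9 of the 10 genes, bt being the exception. Without it the log2 fold changes on 0.7 M sucrose were -0.83 for Mhc, -0.73 for Mlc1, -0.64 for Mlc2, -0.62 for Tm2, -0.57 for Tm1, -0.49 for up, -0.38 for wupA, -0.32 for bt, -0.16 for Act57B and -0.09 for sls. All 10 were thus nearer to 0 than with it, and none then passed with the other groups in the fit. With the 2 groups fitted alone and without it, Mhc (-0.84, adjusted p = 0.0178) and Mlc1 (-0.73, adjusted p = 0.0375) fell in edgeR, with 5.01% of all genes called lower. With both this library and control 0.15 M replicate 2 left out, 0 of the 10 passed in edgeR, when 11.5% of all genes were called.

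**Figure D4:**
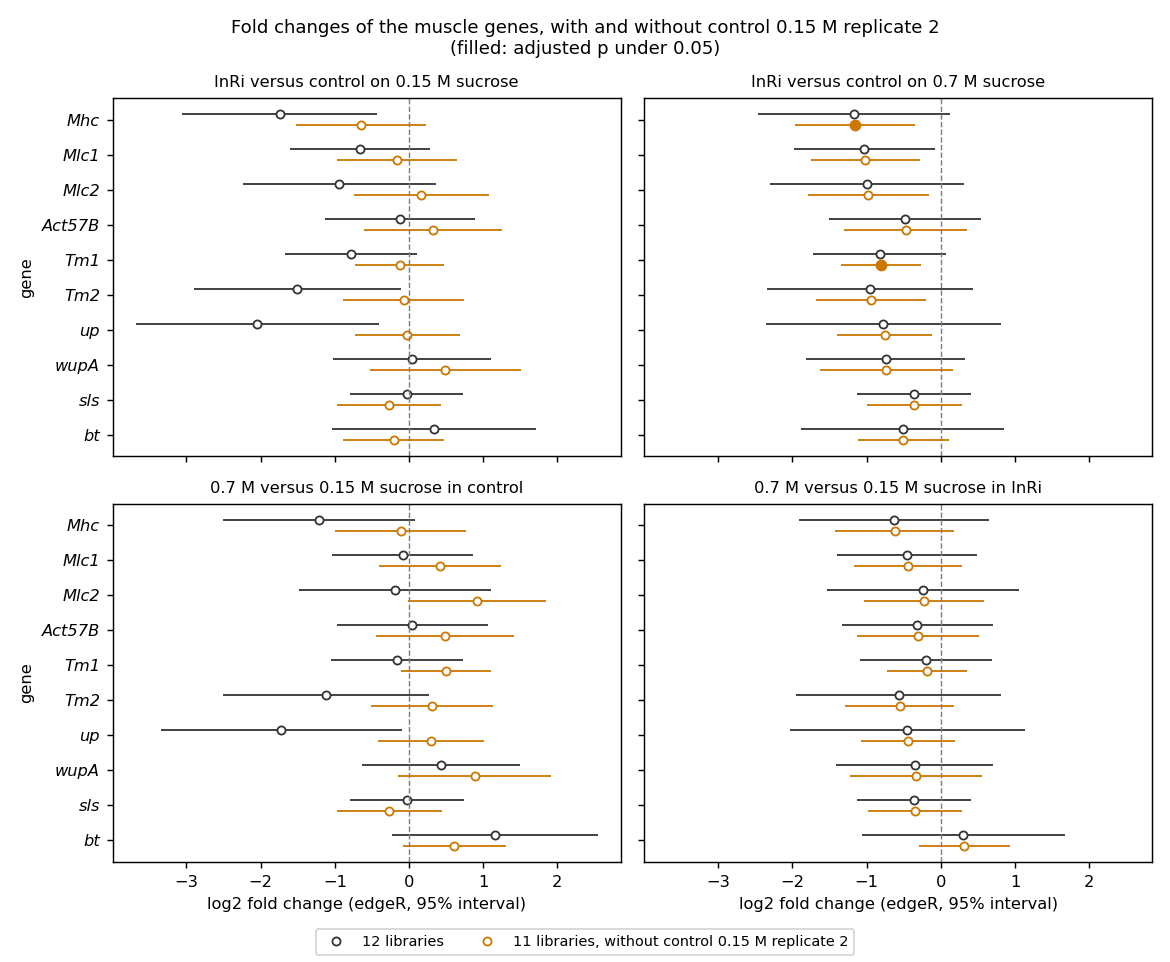
edgeR log2 fold change with its 95% interval for each muscle gene in 4 comparisons, from all 12 libraries (black) and from 11 without control 0.15 M replicate 2 (orange), with filled points for adjusted p under 0.05. The orange points lie near the black ones in the comparisons on the right, and away from them on the left, where up goes from -2.05 to -0.02 and from -1.72 to 0.30.

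Higher sucrose in control larvae gave no call among the 10 genes in edgeR, with 0.277% of all genes called. DESeq2 (2.07% of its genes called) and limma-voom (0.115%) called 0. An unadjusted p under 0.05 was reached by 1 of the 10 and by 908 of 8662 genes. With all 12 libraries the log2 fold changes ran from -1.72 (up, 95% interval -3.34 to -0.10, adjusted p = 0.452) to 1.15 (bt, -0.23 to 2.54, adjusted p = 0.538), and 7 were below 0, as were 47.4% of all genes. Then bt alone did not overlap between diets, being higher on 0.7 M sucrose, as were 8.12% of all genes. Without control 0.15 M replicate 2 they ran from -0.26 (sls) to 0.92 (Mlc2, -0.01 to 1.85, adjusted p = 0.437), and 2 of the 10 were below 0, as were 51.3% of all genes. The sign turned for up (0.30), Tm2 (0.31), Tm1 (0.50), Mlc1 (0.415) and Mlc2 when that library was left out. Then Mlc2, Tm1 and bt did not overlap between diets, being higher on 0.7 M sucrose, as were 12.6% of all genes. None of the 10 passed in edgeR, when 1.51% of all genes were called. An unadjusted p under 0.05 was reached by 0 of the 10 and by 1044 of 8870 genes.

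In the libraries labelled InRi, higher sucrose gave log2 fold changes of -0.64 (Mhc, 95% interval -1.92 to 0.65) to 0.30 (bt, -1.07 to 1.67), and 9 of the 10 were below 0, as were 51.6% of all genes. The median was -0.36, with -0.02 over all genes tested. None of the 10 passed (adjusted p = 0.805 or higher in edgeR, with 1.26% of all genes called). DESeq2 (3.52% of its genes called) and limma-voom (1.42%) called 0. An unadjusted p under 0.05 was reached by 0 of the 10 and by 987 of 8662 genes. The groups overlapped for all 10, while 12.2% of all genes were lower and 14.7% higher without overlap. With control 0.15 M replicate 2 left out these values ran from -0.62 (Mhc) to 0.32 (bt), again with 9 below 0 (50.8% of all genes) and 0 called (6.7%). Without InRi 0.7 M replicate 2 the values lay between -0.30 (Mhc) and 0.11 (Mlc2) for the 9 genes other than bt, while bt was at 0.50.

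Whether the difference between genotypes depended on the diet was tested with an interaction term. None of the 10 genes passed in edgeR (0% of all genes were called), and 0 were called by DESeq2 (0.2% of its genes called) or limma-voom (0%). An unadjusted p under 0.05 was reached by 0 of the 10 and by 456 of 8662 genes. With 12 libraries the interaction was below 0 for 7 of the 10, as for 52.3% of all genes, with a range from -0.85 (bt) to 1.27 (up). Without control 0.15 M replicate 2 it was below 0 for all 10, as for 48.3% of all genes, from -0.08 (sls) to -1.23 (wupA, 95% interval -2.58 to 0.13, adjusted p = 0.577), and up was at -0.73. None passed then either, with 0.0113% of all genes called. An unadjusted p under 0.05 was then reached by 0 of the 10 and by 839 of 8870 genes. Differences between diets in the effect of the genotype were therefore not detectable at this spread. The comparisons share libraries, so their values are not independent of each other.

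Levels of the 10 genes went together across libraries. Over the 11 libraries other than control 0.15 M replicate 2, the 45 pairs of members had Pearson correlations of log2 CPM from 0.504 to 0.994, with a median of 0.818. Over all 12 the median was 0.765 and the lowest -0.746. With the group means taken off, over 11 libraries, the median was 0.873 and 39 of the 45 pairs were over 0.8. Taken singly against the mean of the other members in these 11 libraries, Mlc1 (0.973), Tm2 (0.970) and Mlc2 (0.951) were closest, and bt (0.692) and sls (0.777) were farthest. The points share library, depth and scaling, and the values are a description.

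The genes whose levels were most like the mean of the 10 over 12 libraries, among 6822 others at 5 CPM or more, were CG9297 (Pearson r 0.958, Spearman rho 0.881), Unc-89 (0.945, 0.909), Argk (0.940, 0.909), Mlp84B (0.938, 0.811) and Prm (0.912, 0.902). Unc-89 encodes an obscurin-like protein of the middle of the sarcomere, Mlp84B a LIM protein of muscle, and Prm paramyosin, the core of insect thick filaments. Argk encodes arginine kinase, which buffers ATP in muscle. Next came Lcp4 (0.912), CG14964 (0.910), CG3588 (0.909), TpnC47D (0.907), a troponin C, and mRpL42 (0.907). CG9297, Unc-89, Argk and Mlp84B were also among the 10 most alike both without control 0.15 M replicate 2 and with the group means taken off. The median correlation over all 6822 genes was -0.19. It was 0.786 over the 16 other sarcomere genes compared, which ran from -0.378 to 0.945. The likeness was not particular to them, as the median was 0.866 over 4 cuticle genes and 0.813 over Argk with glycolysis and glycogen breakdown. Without control 0.15 M replicate 2 these 3 medians were 0.741, 0.805 and 0.742.

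Of 23 other sarcomere genes, 17 held enough counts to be tested. Calls in this and the lists below stand beside these edgeR counts over all genes. With 12 libraries 67 of 8662 genes fell and 83 rose in InRi on 0.15 M sucrose, and 155 fell and 314 rose on 0.7 M. With 11 libraries 209 of 8870 fell and 174 rose on 0.15 M, and 665 fell and 978 rose on 0.7 M. An unadjusted p under 0.05 was reached by 1626 and 1622 genes with 12 libraries, and by 1664 and 2867 with 11. Prm was at 199, 1408 and 357 CPM in control 0.15 M, 210, 401 and 322 in InRi 0.15 M, 386, 372 and 345 in control 0.7 M and 254, 136 and 288 in InRi 0.7 M. As for Mhc, the highest value was in control 0.15 M replicate 2 and the lowest in InRi 0.7 M replicate 2. Genes known from adult or flight muscle were at or near 0, with TpnC4 at 0 in all 12 libraries, fln at 0 in 10, TpnC41C at 0 in 9 and Act88F at 0.744 CPM or less. Act87E, an actin of larval muscle and a close copy of Act57B, was at 40.6 to 131 CPM in 11 libraries and 247 in control 0.15 M replicate 2.

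On 0.15 M sucrose 1 of the 17 tested fell and none rose in edgeR, with a median log2 fold change of -0.10. The one was Strn-Mlck, which encodes a stretchin and myosin light chain kinase protein, at 120, 107 and 104 CPM in control 0.15 M against 61.0, 64.8 and 57.0 CPM in InRi 0.15 M (log2 fold change -0.86, SE 0.19, adjusted p = 0.0435). For Strn-Mlck the test was passed in 5 of 20 alternatives (adjusted p up to 0.387, with only these groups fitted), and the groups did not overlap. With 11 libraries Strn-Mlck still fell (-0.90, adjusted p = 0.00922), but the median of the 17 was 0.15, with 7 values below 0 against 11 with 12 libraries, so that the sign of the median turned. On 0.7 M sucrose none of the 17 passed in edgeR, with 1 at an unadjusted p under 0.05, a median of -0.55 and 14 values below 0. With 11 libraries none passed there either, with 6 of the 17 at an unadjusted p under 0.05, as were 2867 of 8870 genes. The median was then -0.54, with 14 values below 0. Strn-Mlck there was at 112, 105 and 98.0 CPM in control against 98.2, 94.0 and 86.3 CPM in InRi (log2 fold change -0.18, adjusted p = 0.704). With more sucrose, over all genes, 13 of 8662 fell and 11 rose in control, and 21 fell and 88 rose in InRi. With 11 libraries 72 of 8870 fell and 62 rose in control, and 186 fell and 408 rose in InRi. None of the 17 was called for sucrose with 12 libraries. With 11 libraries 1 of the 17 rose in InRi (adjusted p = 0.0288 in edgeR), and none was called in control.

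Of 9 genes for calcium handling and excitability of muscle, all were tested and 1 rose in the libraries labelled InRi. This was Sh, which encodes the Shaker potassium channel of muscle and neurons, at 7.63, 5.21 and 5.99 CPM in control 0.15 M and 58.7, 23.1 and 23.6 in InRi 0.15 M. On 0.7 M sucrose Sh was at 6.70, 3.77 and 2.18 CPM in control against 35.8, 30.4 and 34.8 in InRi (log2 fold change 2.83, SE 0.43, adjusted p = 0.00277, and 2.45, SE 0.42, adjusted p = 0.0127 on 0.15 M, in edgeR). On 0.7 M sucrose its direction was opposite to that of the fitted values of the 10 members, and the call on 0.15 M sucrose ended in 1 of 20 alternatives, when only these groups were fitted (adjusted p = 0.188). With 11 libraries Sh rose on both diets too (2.34 on 0.15 M and 2.80 on 0.7 M sucrose), again as the one call among the 9. Ca-P60A, the calcium pump of the sarcoplasmic reticulum, was at 167 to 271 CPM in 11 libraries and at 431 CPM in control 0.15 M replicate 2. Of 17 regulators of muscle identity and fusion, 12 were tested, and none passed in edgeR on either diet, with 4 on 0.15 M and 3 on 0.7 M sucrose at an unadjusted p under 0.05. When control 0.15 M replicate 2 was left out, mbc, which acts in myoblast fusion, rose and rols, which does so too, fell on 0.7 M sucrose in edgeR, and none of the 12 passed on 0.15 M sucrose, with 1 at an unadjusted p under 0.05. With more sucrose 1 of the 12 fell in InRi in that fit (adjusted p = 0.0467 in edgeR), as did 186 of 8870 genes. None was called for sucrose in control, or on either genotype with 12 libraries. Mef2, a transcription factor of muscle that is also active in fat body, was at 22.3 to 45.7 CPM.

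Argk and 9 genes of glycolysis and glycogen breakdown, which muscle uses and other tissues share, gave no call on either diet with 12 libraries in edgeR, with 5 and 2 of 10 at an unadjusted p under 0.05. Their median log2 fold change was -0.91 on 0.15 M and -0.65 on 0.7 M sucrose. Argk was at 583, 2789 and 1019 CPM in control 0.15 M, 545, 939 and 742 in InRi 0.15 M, 982, 909 and 879 in control 0.7 M and 544, 298 and 683 in InRi 0.7 M. Its highest and lowest libraries were those of Mhc. Without control 0.15 M replicate 2 the median on 0.15 M sucrose was -0.19, with no call and 2 at an unadjusted p under 0.05. Tpi, Gapdh2 and Pgk then fell on 0.7 M sucrose (median -0.63), when 7.5% of all genes were called lower. With more sucrose, 0 of the list were called with 12 libraries. With 11 libraries 1 rose in control (adjusted p = 0.0467 in edgeR, 1.51% of all genes called) and 1 in InRi (adjusted p = 0.0055, 6.7% called).

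Non-muscle counterparts, which all cells use for shape and movement, were taken as a comparison. zip encodes the non-muscle myosin heavy chain and ranged over 11 libraries from 265 to 440 CPM, sqh its regulatory light chain from 76.3 to 155, Mlc-c its essential light chain from 90.3 to 120, and the cytoplasmic actins Act5C from 1957 to 2827 and Act42A from 131 to 325. In control 0.15 M replicate 2 Act5C was at 7217 CPM, sqh at 178, zip at 426, and Mlc-c and Act42A at 115. None of the 5 passed in any of the 4 pairwise comparisons in edgeR, with 0 at an unadjusted p under 0.05. With 11 libraries none passed either, with 0 at an unadjusted p under 0.05 for the genotypes on 0.15 M, 1 on 0.7 M, 1 for sucrose in control and 2 for sucrose in InRi. For sucrose, 1044 of 8870 genes reached that p in control and 1991 in InRi. The ratio of Mhc to zip reads ran from 0.407 in InRi 0.7 M replicate 2 to 3.75 in control 0.15 M replicate 3, and was 8.75 in control 0.15 M replicate 2. Mlc2 to sqh ran from 2.44 in InRi 0.7 M replicate 2 to 22.1 in control 0.7 M replicate 1.

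**Figure D5:**
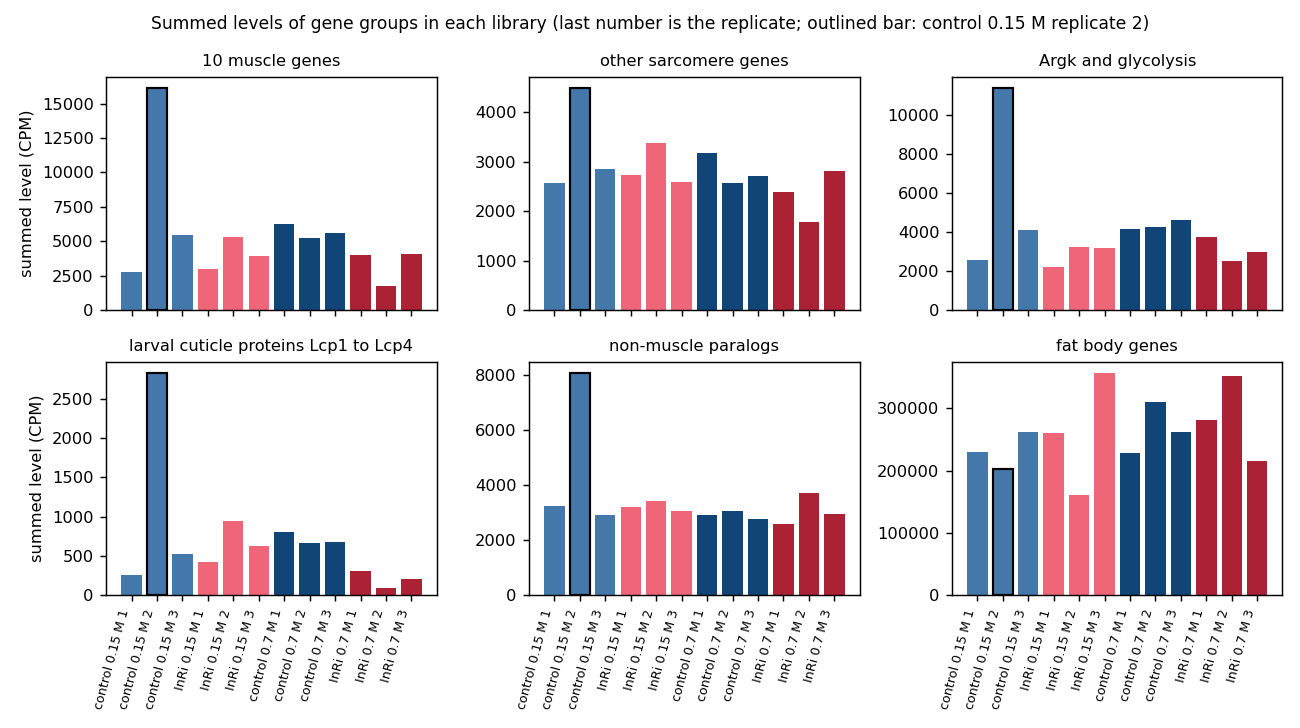
Summed CPM of 6 gene groups in each library, with bars coloured by group and control 0.15 M replicate 2 outlined. All groups but the fat body genes are highest in the outlined library, among them muscle genes (16112 CPM), Argk with glycolysis (11358) and cuticle proteins (2825), while the fat body genes lie between 161197 and 356685 CPM.

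Markers of other tissues were measured beside the muscle genes. The larval cuticle proteins Lcp1 to Lcp4, made by epidermis, summed to 262, 2825 and 523 CPM in control 0.15 M and to 420, 948 and 620 in InRi 0.15 M. In control 0.7 M they summed to 808, 659 and 675 CPM, and in InRi 0.7 M to 306, 92.3 and 206. As for the muscle genes, control 0.15 M replicate 2 was highest, InRi 0.7 M replicate 2 was lowest, and the groups on 0.7 M sucrose did not overlap. Of the 8 cuticle genes listed, 4 were tested, and all 4 had negative log2 fold changes on 0.7 M sucrose (median -1.74, 2 at an unadjusted p under 0.05, 0 called in edgeR). In the fit that leaves out control 0.15 M replicate 2, all 4 fell in edgeR on 0.7 M sucrose, when 7.5% of all genes were called lower. Lcp4 had a log2 fold change of -2.08 (SE 0.50, adjusted p = 0.0111). On 0.15 M sucrose none passed in that fit (median 0.71, 1 at an unadjusted p under 0.05). With more sucrose in InRi, 2 of the 4 fell in it, when 6.7% of all genes were called, and 0 with 12 libraries.

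The 9 genes listed for hemocytes summed to 7827 CPM in control 0.15 M replicate 2 and to 891 to 2932 CPM in the others. In the libraries labelled InRi none of them passed in edgeR on 0.15 M sucrose, with 0 at an unadjusted p under 0.05. Pxn, a peroxidase of hemocytes, rose on 0.7 M sucrose, when 5.41% of all genes were called. With 11 libraries 2 had an unadjusted p under 0.05 on 0.15 M sucrose, none of which passed. Pxn, crq, vkg and Cg25C then rose on 0.7 M sucrose, when 18.5% of all genes were called. With more sucrose 2 of the 9 fell in control with 11 libraries, when 1.51% of all genes were called. None was called for sucrose with 12 libraries or in InRi. The part of fat body cells in the RNA of these 9 genes was not tested. Salivary gland markers, 10 genes, summed to 2725 to 5790 CPM in control 0.7 M and to 13.3 to 116 CPM in InRi 0.7 M. Of 9 tested, 8 fell there, as did 155 of 8662 genes. On 0.15 M sucrose 2 fell, the glue gene Sgs1 and the gland factor sage, as did 67 of 8662 genes. With 11 libraries 8 and 2 fell as well, when 665 and 209 of 8870 genes did. With more sucrose 1 fell in InRi with 11 libraries (adjusted p = 0.0497 in edgeR). None was called for sucrose with 12 libraries or in control.

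Midgut markers, 13 genes, summed to 547 to 619 CPM in control 0.7 M and 221 to 639 in InRi 0.7 M. Of 12 tested, the maltase gene Mal-A6 fell in the libraries labelled InRi on both diets and the lysozyme gene LysE rose on 0.15 M sucrose. With more sucrose LysB and Amy-p fell in control and LysB and LysE in InRi. With 11 libraries Mal-A6 and Amy-p fell and LysE rose on 0.15 M sucrose, when 4.32% of all genes were called. On 0.7 M sucrose Mal-A6 fell and LysB and LysE rose with 11 libraries, when 18.5% were called. For more sucrose, Jon65Aiv was then added to the falls in control and Mal-A6 to those in InRi. Markers of the nervous system, 9 genes, held between 489 and 652 CPM in all 12 libraries, and with 12 libraries none passed on either diet, with 1 at an unadjusted p under 0.05 on each. With 11 libraries cac, which encodes a calcium channel subunit of neurons, fell on 0.7 M sucrose (-0.97, adjusted p = 0.0353). Trachea markers, 6 genes, lay between 92.5 and 288 CPM and imaginal disc markers, 10 genes, between 97.5 and 248 CPM, with no call in edgeR with 12 libraries and 1 and 0 at an unadjusted p under 0.05 on 0.15 M sucrose and 0 and 0 on 0.7 M. With 11 libraries no trachea marker passed, with 0 at an unadjusted p under 0.05 on either diet, and the disc marker ac fell on 0.7 M sucrose (adjusted p = 0.0102). With more sucrose 1 disc marker fell in InRi with 11 libraries (adjusted p = 0.0451 in edgeR), when 6.7% of all genes were called.

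Markers of heart and pericardial cells, 5 genes, summed to 66.0 to 205 CPM, with the heart factor tin at 0 in 11 libraries. The one that rose was prc, which encodes the matrix protein pericardin, on 0.15 M (log2 fold change 2.62, adjusted p = 0.0235) and 0.7 M sucrose (4.20, adjusted p = 0.0015 in edgeR), and it rose on both with 11 libraries. Germline and gonad markers, 6 genes, stayed at 6.77 CPM or less and were not tested. Of the 10 fat body genes, the storage protein gene Lsp1alpha fell in the libraries labelled InRi on both diets, and CG15828 and svp rose on 0.7 M sucrose. With 11 libraries these calls remained, CG15828 rose on 0.15 M sucrose too, and Fbp2 fell on 0.7 M sucrose. With more sucrose 1 of the 10 fell in InRi with 12 libraries (adjusted p = 0.0050 in edgeR), and 1 rose and 1 fell with 11. None of the 10 was called for sucrose in control. The part of other tissues in the muscle gene results was not tested.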

How the data were processed

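Per the labels, fat body RNA passed through RiboZero before libraries were read on a HiSeq. The authors deposited whole-number read counts per gene, 15222 genes by 12 libraries, with 0 columns left over, and the tools in the submitters' processing notes are Bowtie 0.12.7, Cufflinks 1.1.0 and TopHat 1.3.2, on build dm3. Neither the counter nor the strand is given in the sources, so reads of overlapping or antisense genes cannot be separated. Columns were matched to groups by library title.

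The filter filterByExpr (at least 10 counts, total of at least 15) left 8662 of 13018 genes with any count. The quasi-likelihood test of edgeR 4.0.16 (R 4.3.3, limma 3.58.1) was fitted to all 12 libraries with TMM scaling and 1 mean per group, and p-values were adjusted by Benjamini-Hochberg over all genes tested, with calls at 0.05. SE is the log2 fold change over the square root of F. Alternatives were 3 scalings, DESeq2 1.42.0, limma-voom, no filter, a replicate block, the groups compared alone and each library left out. The script was tested on simulated data. Correlations among the members use log2 CPM without a prior count, and the other correlations use log2 CPM with a prior count of 2. Python 3.11.15 with pandas 2.3.3, scipy 1.17.1 and matplotlib 3.10.9 made tables and figures. A later annotation (BDGP6.54) served for names, chromosome arms and lengths only, for 14879 genes.

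The 10 members and the 15 other gene lists were chosen with earlier results of these data known. Named genes were all members, InR, and of each list up to 6 genes of highest level and up to 4 of smallest p. Genes named for being at or near 0, and the chromosome comparison, were chosen after values were seen. Of the list symbols, 9 matched by synonym and 2 did not match. A floor of 3 counts is 0.423 to 3.27 CPM. No sequences are shown.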

Additional observations from a re-analysis of the deposited data

How the results depend on the processing

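Each of the 10 genes was refitted in 4 pairwise comparisons and the interaction under 3 scalings, DESeq2, limma-voom, no filter, a replicate block, the compared groups alone (pairwise only) and 12 omissions. Replicate numbers did not pair the libraries (18 same-number correlations from -0.367 to 0.161, 2 over 0.1), and 2 of 12 libraries were closest to their own number. With the replicate block 0 of the 10 were called in every comparison, and genes called on 0.7 M sucrose went from 469 to 305. No member was called in 97 alternatives, and 4 differed. These were 2 without control 0.15 M replicate 1 (range over omissions 0 to 2) on 0.15 M sucrose, and on 0.7 M sucrose 2 without control 0.15 M replicate 2 (0 to 2), 6 with the compared groups alone, and 2 with those alone and InRi 0.7 M replicate 2 left out, a choice made after seeing the data.

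In the 4 pairwise comparisons signs turned in the following fits, and the cause was not tested. On 0.15 M sucrose these were Act57B with no scaling (0.15), wupA with RLE (-0.012), upper-quartile (-0.028) and DESeq2 (-0.0014), and sls with no scaling (0.18), limma-voom (0.018), no filter (0.044) and the replicate block (0.034). Over omissions Act57B ran from -0.50 to 0.32, Mlc2 from -1.42 to 0.17, wupA from -0.36 to 0.49, sls from -0.29 to 0.29 and bt from -0.21 to 0.92. For sucrose in control these were Act57B with RLE (-0.021), upper-quartile (-0.023) and DESeq2 (-0.010), Mlc1 with no scaling (0.0056) and limma-voom (0.030), Mlc2 with limma-voom (0.22) and the replicate block (0.023), and sls with no scaling (0.0037), limma-voom (0.024), no filter (0.017) and the replicate block (0.011). Over omissions Act57B ran from -0.34 to 0.49, Mlc1 from -0.46 to 0.415, Mlc2 from -0.67 to 0.92, up from -2.26 to 0.30, Tm1 from -0.53 to 0.50, Tm2 from -1.63 to 0.31 and sls from -0.26 to 0.29. For sucrose in the libraries labelled InRi, omissions gave -0.53 to 0.0094 for Act57B, -0.49 to 0.11 for Mlc2, -0.58 to 0.023 for wupA and -0.39 to 0.055 for Tm1. For the interaction, leaving out control 0.15 M replicate 2 turned Mhc (0.57 to -0.51), up (1.27 to -0.73) and Tm2 (0.55 to -0.87), and its other alternatives are not listed. For the genotypes on 0.7 M sucrose no sign turned in any alternative run. All genes called ranged from 137 to 1700 there, 0 to 555 on 0.15 M, 0 to 181 for sucrose in control, 7 to 594 for sucrose in InRi and 0 to 17 for the interaction. With CPM on total counts the summed level was 6929 in InRi 0.15 M replicate 2, 6744 in control 0.7 M replicate 1 and 4633 in control 0.7 M replicate 2. InRi 0.15 M replicates 1 and 3 were then at 3338 and 3609, and control 0.15 M replicates 1 and 3 at 2913 and 5497. Without control 0.15 M replicate 2 the mean of InRi 0.15 M was then above that of control 0.15 M, the reverse of the order with TMM. Of the 10 genes most like the members, 5 stayed without control 0.15 M replicate 2 and 6 with group means taken off.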
